A study of Homo sapiens with 16 samples.

Results

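Transcripts of 10 receptor tyrosine kinases linked to BRAF inhibitor (BRAFi) resistance were examined in BRAFi-resistant melanoma cells: *EGFR*, *ERBB2*, *ERBB3*, *ERBB4*, *PDGFRA*, *PDGFRB*, *MET*, *KIT*, *IGF1R* and *FGFR1*. They were taken by gene symbol and by no rule on their values, though with earlier results of these data known. They are 10 of the 34228 genes in the count table. The cells were 451Lu-R and 1205Lu-R, human melanoma cell lines with acquired resistance to the BRAFi PLX4032 (vemurafenib). Each line received either 2.5 μM corin or its vehicle DMSO for 24 h. Corin is a dual inhibitor that joins a class I HDAC inhibitor to an LSD1 inhibitor and so targets both enzymes of the CoREST repressor complex. Poly(A) RNA from 2 libraries per group was sequenced, which gives 8 libraries: 451Lu-R DMSO, 451Lu-R corin, 1205Lu-R DMSO and 1205Lu-R corin.

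All 4 groups shared the BRAFi-resistant state, and per the study these arms received no PLX4032 during the treatment. The study otherwise kept its resistant lines in PLX4032 to maintain resistance, so the DMSO groups are not the maintenance condition of these cells. What the absence of PLX4032 did to the transcripts reported here was not tested. The study classes 451Lu-R as MITFhi/AXLlo and 1205Lu-R as MITFlo/AXLhi. Each phenotype is represented by 1 cell line, so the differences between lines below cannot be told apart from other differences between these lines. The study describes its data in general as representative of independent experiments, but neither the labels nor the methods say of these libraries that the replicates were separate cultures. The p-values therefore measure only the spread between these libraries, which may be technical. In such bulk samples, fewer cells that express a gene and less RNA per cell cannot be told apart.

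Receptor tyrosine kinases are single-pass membrane proteins. A ligand brings receptor chains together, the kinase domains phosphorylate each other, and adaptor proteins then pass the signal to RAS and ERK and to PI3K and AKT. In BRAF-mutant melanoma these kinases are known as a route around BRAF inhibition, because they can feed RAS from above the blocked kinase. *ERBB3* is typical of melanocytic, MITF-expressing melanoma, while *EGFR* and *PDGFRB* are best known from dedifferentiated, drug-resistant melanoma.

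The libraries held between 9516687 and 11797788 estimated counts. The 2 libraries of a group differed little more than counting noise, which gives a chi-square of about 1 for each degree of freedom, and they gave 1.34 to 1.41. *MITF*, the melanocyte master regulator, had 8524 and 7769 estimated counts with DMSO in 451Lu-R, where 1205Lu-R had 89.0 and 67. *AXL* showed the opposite order, with 2.42 and 0 counts in 451Lu-R against 10486 and 10369 in 1205Lu-R. *SOX10* and *TYR*, which define the melanocyte lineage, were at 0 in all 4 libraries of 1205Lu-R. Markers of other cell types were not all absent, and in 451Lu-R the leukocyte marker *CD68* and the fibroblast marker *LUM* were not low. The summed level of the 3 endothelial markers (*PECAM1*, *CDH5*, *VWF*) ran from 1.35 to 1.47 CPM (counts scaled to the library's total) with DMSO and from 8.39 to 9.10 CPM with corin in 451Lu-R, and from 10.7 to 10.8 CPM and from 24.0 to 27.6 CPM in 1205Lu-R, with *CDH5* at 6 counts or fewer throughout. The higher sums with corin were mainly those of *VWF*, while *PECAM1*, with 0 counts in 451Lu-R, went down in 1205Lu-R from 9.44 ± 0.516 to 7.34 ± 1.81 CPM (SD, n = 2; edgeR adjusted p = 0.0185). The 2 fibroblast markers in the table (*DCN*, *LUM*) summed to between 45.7 and 49.3 CPM with DMSO and between 104 and 110 CPM with corin in 451Lu-R, and to at most 0.122 CPM in 1205Lu-R. The 3 epithelial markers (*KRT5*, *KRT14*, *EPCAM*) reached at most 5.42 CPM, in 451Lu-R with corin. Of the 2 leukocyte markers in the table, *PTPRC* had 3 counts or fewer in every library, and the pair summed to between 64.9 and 89.4 CPM in 451Lu-R, nearly all of it *CD68*, and to between 9.85 and 14.2 CPM in 1205Lu-R. Their part in the results below was not tested.

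In the GENCODE 44 annotation of GRCh38, the 10 genes are protein-coding and lie on 8 chromosomes. *EGFR* is at chr7:55019017-55211628 (+), *ERBB2* at chr17:39687914-39730426 (+), *ERBB3* at chr12:56076799-56103505 (+) and *ERBB4* at chr2:211375717-212538841 (−). *PDGFRA* is at chr4:54229280-54298245 (+), *KIT* at chr4:54657267-54740783 (+) and *PDGFRB* at chr5:150113839-150155872 (−). *MET* is at chr7:116672196-116798377 (+) and *IGF1R* at chr15:98648539-98964530 (+). Exons of *EGFR*, *ERBB2* and *FGFR1* overlap genes on the opposite strand (*EGFR-AS1*, *MIEN1* with *PGAP3*, and *LETM2* with a long noncoding RNA), and those of *ERBB3* and *PDGFRA* overlap a second coding gene model on the same strand. Whether the quantification used strand is not given in the sources used here, so reads of these overlaps are uncertain.

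Promoter sequence (the 250 bases before the RefSeq start, GRCh38.p14) was at hand for 8 of the 10 genes, that is for all but *ERBB3* and *FGFR1*. The last 200 bases before the start are shown for *EGFR*, *PDGFRA* and *PDGFRB*, the 3 receptors with the largest excess of 1205Lu-R over 451Lu-R with DMSO. Capitals mark GGGCGG on either strand (a GC box) or TGANTCA, each read on the gene's strand. TGANTCA is a loose form of the motif of AP-1 factors, as N is any base where the usual motif has C or G. The match marked in *PDGFRA* is TGAATCA and so lacks that C or G. They lie at chr7:55018817-55019016 (+), chr4:54229093-54229292 (+) and chr5:150155846-150156045 (−).
EGFR: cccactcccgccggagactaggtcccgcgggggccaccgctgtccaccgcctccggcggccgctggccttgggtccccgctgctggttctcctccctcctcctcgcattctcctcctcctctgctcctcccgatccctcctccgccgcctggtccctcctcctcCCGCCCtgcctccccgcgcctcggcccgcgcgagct
PDGFRA: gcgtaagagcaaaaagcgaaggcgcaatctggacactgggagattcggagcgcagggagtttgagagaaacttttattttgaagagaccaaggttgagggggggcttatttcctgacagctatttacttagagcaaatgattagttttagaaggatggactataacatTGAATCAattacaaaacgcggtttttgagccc
PDGFRB: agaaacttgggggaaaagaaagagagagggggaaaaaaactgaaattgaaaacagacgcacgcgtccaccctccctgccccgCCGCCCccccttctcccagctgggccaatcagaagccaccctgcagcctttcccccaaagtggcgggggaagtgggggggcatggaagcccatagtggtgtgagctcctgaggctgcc
These promoters differ in base composition. Over 250 bases, G and C made up 73.6% in *EGFR*, 58.4% in *PDGFRB* and 46.8% in *PDGFRA*, where the median of 27305 promoters was 58.0%. *EGFR* held GGGCGG at 204 and 36 bases before the start, the first of them upstream of the stretch shown, and *PDGFRB* held it at 118 bases, while *PDGFRA* held none and had TGANTCA at 32 bases. Of all promoters of this length, 42.3% held GGGCGG and 6.60% held TGANTCA on at least 1 strand. No CACGTG or CATGTG (the E-boxes bound by MITF-type factors), ACAATG (a SOX motif) or TATAAA was found in the 8 promoters, and these were in 6.49%, 9.54%, 9.45% and 11.1% of all promoters. The other promoter with TGANTCA was that of *ERBB2*. These are matches of letters, not binding sites.

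With DMSO, the cell lines differed in 9 of 9 receptors that could be tested. The largest differences were in *PDGFRB*, *ERBB3*, *PDGFRA* and *EGFR*, with *ERBB3* on the side of 451Lu-R and the other 3 on the side of 1205Lu-R. In the edgeR fit over all 8 libraries, 5 receptors were higher in 1205Lu-R (*EGFR*, *ERBB2*, *PDGFRA*, *PDGFRB* and *FGFR1*) and 4 were lower (*ERBB3*, *ERBB4*, *MET* and *IGF1R*) at an adjusted p under 0.05. Over the 16062 genes tested, 38.2% were higher in 1205Lu-R and 37.2% were lower, so that a difference between the lines was the rule for genes in general. Folds here and below come from the edgeR fit with its own scaling of the libraries (TMM). CPM are scaled to library totals only, so a ratio of mean CPM can differ from the fold.

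**Figure D1:**
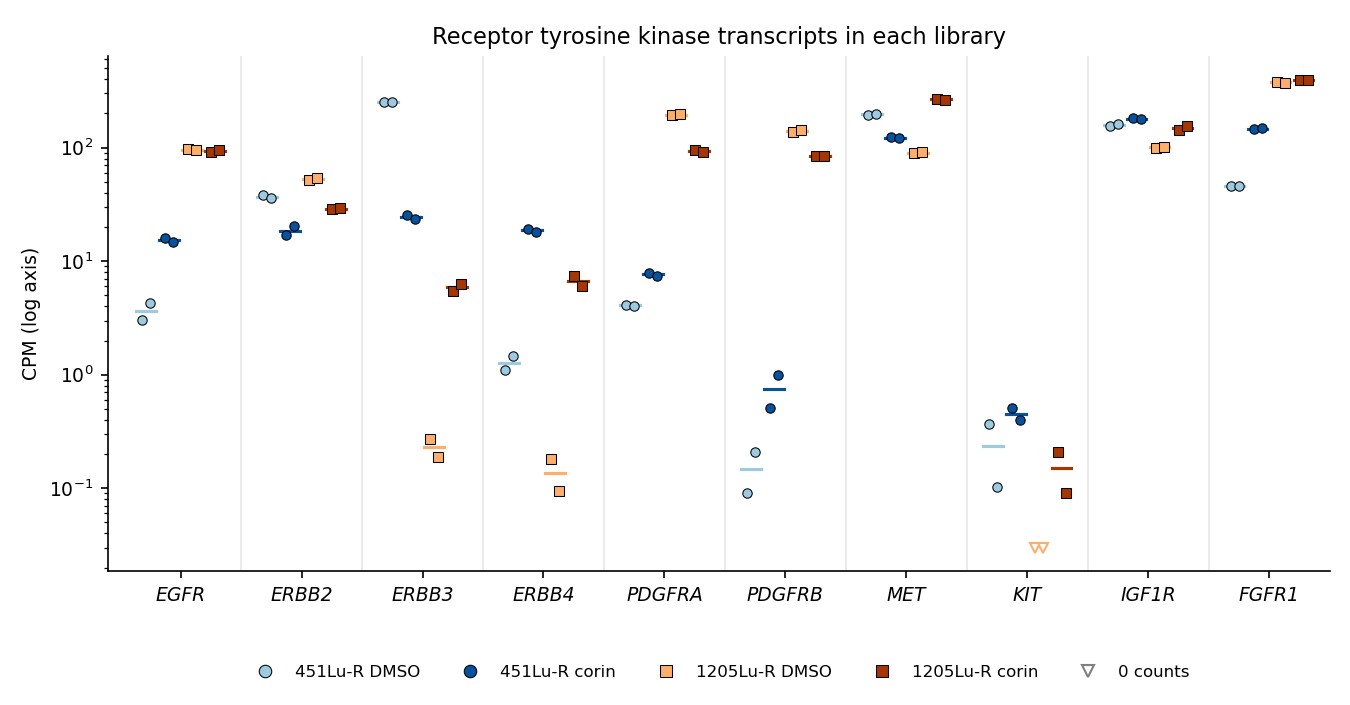
CPM of each receptor (log axis) in each of the 8 libraries, with a short bar at the mean of the 2 libraries of a group and open triangles, placed at the bottom, for libraries at 0 counts. *ERBB3* was highest in 451Lu-R with DMSO, at a mean of 251 CPM, and *PDGFRA* and *PDGFRB* were highest in 1205Lu-R with DMSO, at means of 196 and 140 CPM.

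*ERBB3*, a receptor for neuregulins that signals through partner kinases because its own kinase is nearly inactive, had 2745 and 2428 estimated counts in 451Lu-R with DMSO against 301 and 234 with corin. In 1205Lu-R it had 3 and 2 with DMSO against 52.3 and 69.5 with corin. The 4 groups did not overlap, and the level in the line where *ERBB3* was high went down while the level in the line where it was nearly absent went up. In 451Lu-R, *ERBB3* fell 9.57-fold, from 251 ± 0.371 to 24.5 ± 1.47 CPM (SD, n = 2; log2 fold change -3.26, SE 0.049, edgeR adjusted p = 1.77e-21). It rose in 1205Lu-R from 0.230 ± 0.059 to 5.88 ± 0.533 CPM (SD, n = 2; log2 fold change 4.54, SE 0.40, edgeR adjusted p = 1.02e-09). Because the DMSO libraries of 1205Lu-R held so few reads, *ERBB3* entered this test only through the corin libraries and could only rise. The size of the rise is loosely known for the same reason, and the ratio of the summed counts was 25.7 (95% counting interval 10.7 to 80.4). Even after corin, *ERBB3* was 4.40-fold lower in 1205Lu-R than in 451Lu-R (log2 difference -2.14, SE 0.11, edgeR adjusted p = 1.52e-13). With DMSO, the ratio of 451Lu-R to 1205Lu-R was 1091 (467 to 3361).

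*ERBB4*, the other neuregulin receptor and one with an active kinase, was low in both lines with DMSO and rose in both with corin. It had 12 and 14 estimated counts in 451Lu-R with DMSO against 225 and 182 with corin. In 1205Lu-R it had 2 and 1 with DMSO against 71 and 67 with corin. In each line every corin library lay above every DMSO library. The rise was 15.7-fold in 451Lu-R (1.27 ± 0.246 to 18.6 ± 0.619 CPM, SD, n = 2; log2 fold change 3.97, SE 0.19, edgeR adjusted p = 2.07e-13). In 1205Lu-R the mean went from 0.137 ± 0.061 to 6.74 ± 1.01 CPM (SD, n = 2), with a ratio of counts of 48.4 (16.2 to 237), and the edgeR adjusted p was 2.08e-10. There *ERBB4* also entered the test only through the corin libraries and could only rise. The rise in one line was not shown to differ from that in the other (difference in log2 fold change 1.41, SE 0.68, edgeR adjusted p = 0.101).

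*EGFR*, the receptor for EGF, amphiregulin and related ligands, had 33 and 41 estimated counts in 451Lu-R with DMSO against 190 and 147 with corin. In 1205Lu-R it had 1085 and 1003 with DMSO against 878 and 1057 with corin. With corin *EGFR* was higher in the line where it had been low, and it stayed near its starting level in the line where it was high. The rise in 451Lu-R was 4.58-fold, from 3.63 ± 0.860 to 15.4 ± 0.995 CPM (SD, n = 2; log2 fold change 2.20, SE 0.17, edgeR adjusted p = 3.37e-10). In 1205Lu-R the means were 96.2 ± 2.55 and 93.7 ± 2.0 CPM (SD, n = 2), and the libraries of both groups overlapped. edgeR called this a fall (log2 fold change -0.11, SE 0.044, adjusted p = 0.0261), but the call was lost with DESeq2 (adjusted p = 0.261), with scaling by library size alone (edgeR adjusted p = 0.468), and without the replicate 1 of either the DMSO or the corin group (edgeR adjusted p = 0.115 and 0.136). With corin, 1205Lu-R still had 5.71-fold more *EGFR* than 451Lu-R, against 29.1-fold with DMSO.

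*ERBB2*, which binds no ligand and serves as the preferred partner of the other ERBB receptors, fell in both lines. It had 413 and 351 estimated counts in 451Lu-R with DMSO against 201 and 202 with corin. In 1205Lu-R it had 574 and 576 with DMSO against 272 and 329 with corin. Every corin library lay below every DMSO library of its line once scaled to the library's total. *ERBB2* fell 1.87-fold in 451Lu-R (37.1 ± 1.12 to 18.6 ± 2.24 CPM, SD, n = 2; edgeR adjusted p = 1.56e-08) and 1.92-fold in 1205Lu-R (53.0 ± 1.71 to 29.1 ± 0.733 CPM, SD, n = 2; edgeR adjusted p = 5.39e-11). The difference between these responses did not pass the test (-0.07 on the log2 scale, SE 0.11, edgeR adjusted p = 0.667), and its sign turned with scaling by library size alone (0.14) and without the corin replicate 2 of 451Lu-R (0.061).

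*PDGFRA*, the receptor bound by all PDGF dimers but PDGF-DD, was far more abundant in 1205Lu-R. It had 45 and 39 estimated counts in 451Lu-R with DMSO, 93 and 74 with corin, 2164 and 2081 in 1205Lu-R with DMSO against 906 and 1025 with corin. It went up 2.0-fold in 451Lu-R, from 4.08 ± 0.065 to 7.64 ± 0.342 CPM (SD, n = 2; log2 fold change 1.0, SE 0.19, edgeR adjusted p = 6.49e-05). It fell 2.20-fold in 1205Lu-R, from 196 ± 0.279 to 93.7 ± 2.08 CPM (SD, n = 2; log2 fold change -1.14, SE 0.038, edgeR adjusted p = 3.70e-17). The lines thus moved towards each other, and the 52.1-fold difference between them with DMSO was 11.5-fold with corin.

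*PDGFRB*, the receptor for PDGF-BB and a marker of mesenchymal cells, had 1 and 2 estimated counts in 451Lu-R with DMSO against 6 and 10 with corin. These counts were too low for the test within 451Lu-R, and their ratio was 5.03 (95% counting interval 1.44 to 26.9). *PDGFRB* was called as risen there with no filter on low counts (edgeR adjusted p = 0.0218), with all 8 libraries in 1 fit (0.00268) and without the DMSO replicate 2 (0.0277), but not without the DMSO replicate 1 (0.12). In 1205Lu-R, *PDGFRB* had 1523 and 1504 estimated counts with DMSO against 811 and 940 with corin. It fell 1.73-fold there, from 140 ± 2.85 to 84.9 ± 0.448 CPM (SD, n = 2; log2 fold change -0.79, SE 0.041, edgeR adjusted p = 7.49e-14). With DMSO the ratio of 1205Lu-R to 451Lu-R was 957 (327 to 4643), its fitted log2 difference was 9.91 and 10.5 without the DMSO replicate 2 of 451Lu-R, and with corin 1205Lu-R was 107-fold higher (log2 difference 6.74, SE 0.13, edgeR adjusted p = 3.06e-21).

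*MET*, the receptor for hepatocyte growth factor, changed places between the lines. It had 2132 and 1917 estimated counts in 451Lu-R with DMSO against 1458 and 1215 with corin. In 1205Lu-R it had 984 and 978 with DMSO against 2534 and 2945 with corin. All 4 groups lay apart. *MET* fell 1.5-fold in 451Lu-R (197 ± 2.0 to 123 ± 1.5 CPM, SD, n = 2; log2 fold change -0.58, SE 0.035, edgeR adjusted p = 6.04e-12) and rose 2.79-fold in 1205Lu-R (90.5 ± 2.24 to 266 ± 0.892 CPM, SD, n = 2; log2 fold change 1.48, SE 0.037, edgeR adjusted p = 2.36e-19). With DMSO, *MET* was 2.0-fold lower in 1205Lu-R than in 451Lu-R (edgeR adjusted p = 4.60e-16), and with corin it was 2.04-fold higher (edgeR adjusted p = 3.44e-17). It was the only receptor of the 9 tested whose order between the lines turned with corin.

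*FGFR1*, a receptor for fibroblast growth factors that lies at chr8:38400215-38468834 (−), had 496 and 448 estimated counts in 451Lu-R with DMSO against 1707 and 1488 with corin. It rose 3.42-fold there, from 45.9 ± 0.611 to 147 ± 2.89 CPM (SD, n = 2; log2 fold change 1.77, SE 0.048, edgeR adjusted p = 1.71e-17). In 1205Lu-R it had 4232 and 3940 with DMSO against 3767 and 4388 with corin, and its log2 fold change of -0.0040 (SE 0.028, edgeR adjusted p = 0.901) did not pass the test. The sign of that value turned with the scaling of the libraries, and with library size alone it was 0.071 and passed the test (edgeR adjusted p = 0.0334). As with *EGFR*, the rise was in the line where the receptor was low. *FGFR1* was 8.94-fold higher in 1205Lu-R with DMSO and 2.54-fold higher with corin.

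*IGF1R*, the receptor for insulin-like growth factors, had group means within a range of 100.4 to 181 CPM. It had 1675 and 1562 estimated counts in 451Lu-R with DMSO against 2133 and 1803 with corin, and 1102 and 1075 in 1205Lu-R with DMSO against 1373 and 1720 with corin. It rose 1.23-fold in 451Lu-R (158 ± 5.66 to 181 ± 0.375 CPM, SD, n = 2; edgeR adjusted p = 2.18e-07) and 1.42-fold in 1205Lu-R (100.4 ± 1.16 to 149.5 ± 7.42 CPM, SD, n = 2; edgeR adjusted p = 3.51e-10). These folds are small enough for the scaling to matter. The log2 fold change was 0.30 in 451Lu-R, and over the alternative fits it ran from 0.20 to 0.33. In 1205Lu-R it was 0.50, with a range of 0.45 to 0.58. *KIT*, the receptor for stem cell factor and a gene of normal melanocytes, had 4 and 1 counts in 451Lu-R with DMSO, 6 and 4 with corin, 0 and 0 in 1205Lu-R with DMSO against 2 and 1 with corin. It passed the filter on low counts in no comparison, and a change in *KIT* was not detectable at this depth.

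**Figure D2:**
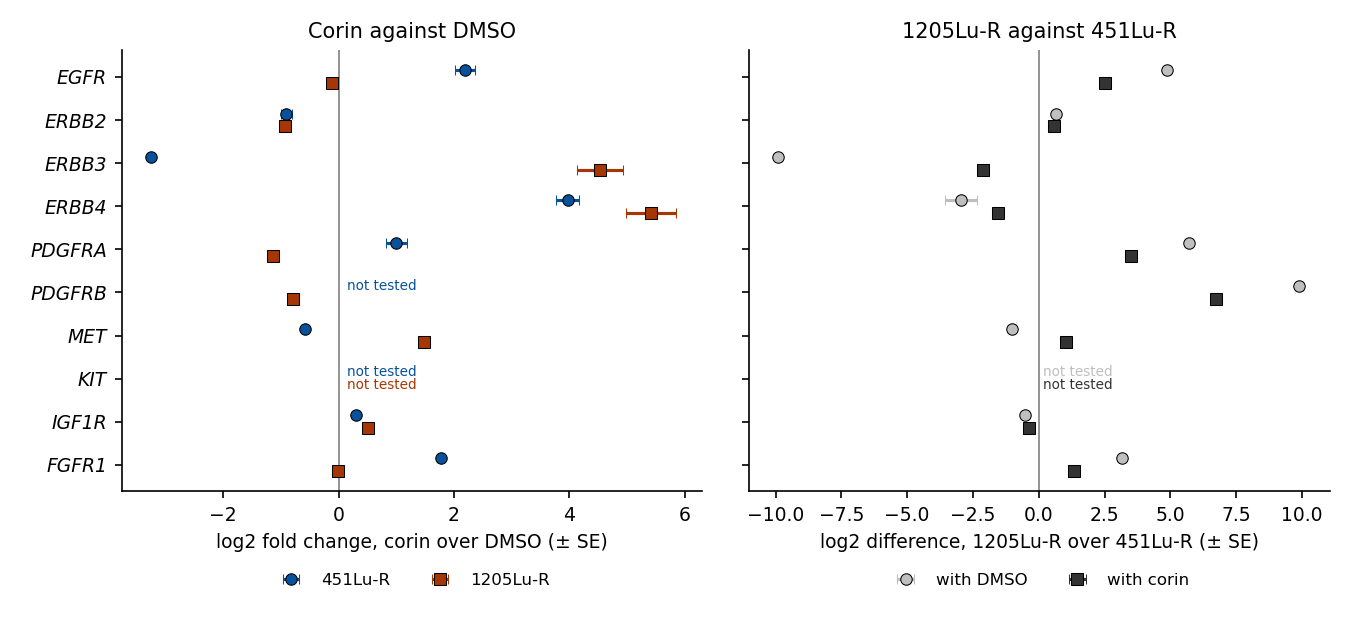
Left, log2 fold change of each receptor with corin over DMSO in 451Lu-R (circles) and 1205Lu-R (squares); right, log2 difference of 1205Lu-R over 451Lu-R with DMSO (light circles) and with corin (dark squares), both with the SE as bars. *ERBB3*, *PDGFRA* and *MET* lie on opposite sides of 0 in the left panel with both values called. In the right panel the tested receptors other than *MET* lie nearer to 0 with corin than with DMSO (*ERBB2* not so with scaling by library size alone or without 451Lu-R corin replicate 2). *MET* crosses 0, from 1.0 below it with DMSO to 1.03 above it with corin. The share of all genes that lie nearer to 0 with corin was not counted, so this is not shown to be particular to the receptors.

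Counted together, 5 of the 8 receptors tested in 451Lu-R rose with corin (*EGFR*, *ERBB4*, *PDGFRA*, *IGF1R*, *FGFR1*) and 3 fell (*ERBB2*, *ERBB3*, *MET*), where 41.3% and 38.6% of the 14530 genes tested rose and fell. Of the 9 tested in 1205Lu-R, 4 rose (*ERBB3*, *ERBB4*, *MET*, *IGF1R*), 4 fell (*EGFR*, *ERBB2*, *PDGFRA*, *PDGFRB*) and *FGFR1* was not called, where 40.4% and 37.8% of 14563 genes rose and fell. A stricter rule asked for a fold change of at least 4 and an adjusted p under 0.001. The study used these limits for corin plus PLX4032 against PLX4032 alone, and here they were applied to edgeR results of corin against DMSO. By this rule 2 rose (*EGFR*, *ERBB4*) and 1 fell (*ERBB3*) in 451Lu-R, beside 12.4% and 2.72% of all genes tested. In 1205Lu-R 2 rose (*ERBB3*, *ERBB4*) and 0 fell by that rule, beside 11.3% and 1.43%. Both had 3 counts or fewer in each DMSO library of 1205Lu-R, as had 4.24% of all genes tested there. *ERBB3* and *ERBB4* thus entered the test in 1205Lu-R only through the corin libraries and could only rise. Their calls under both rules are not a measure of the list. The same holds for the count of 4 risen and for the median of 1205Lu-R below, which include them. At these backgrounds the counts of receptors changed are not particular to the receptors. The median log2 fold change of the members was 0.65 for 451Lu-R and -0.0040 for 1205Lu-R, and that of all genes tested was 0.032 and 0.034.

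The difference between the responses of the lines was tested as an interaction in the fit over 8 libraries. It uses the same libraries as the comparisons above and is their difference, not a separate experiment. For 7 of the 9 receptors tested the responses differed, where 49.7% of the 16062 genes did. The response of 1205Lu-R was the more positive one for *ERBB3* (log2 difference 7.76, SE 0.30), *MET* (2.03, SE 0.051) and *IGF1R* (0.17, SE 0.058). It was the more negative one for *PDGFRB* (-3.16, SE 0.64), *EGFR* (-2.35, SE 0.16), *PDGFRA* (-2.18, SE 0.16) and *FGFR1* (-1.82, SE 0.059). The edgeR adjusted p was 4.95e-15 for *ERBB3*, 3.39e-18 for *MET*, 5.06e-11 for *EGFR*, 2.32e-10 for *PDGFRA*, 0.00029 for *PDGFRB*, 2.73e-16 for *FGFR1* and 0.0193 for *IGF1R*. The values for *ERBB3* and *PDGFRB* rest on groups with 3 counts or fewer per library, and without the DMSO replicate 2 of 451Lu-R the value for *PDGFRB* was -3.77. That for *IGF1R* did not hold with DESeq2 (adjusted p = 0.0658), nor without 451Lu-R DMSO replicate 2 (edgeR adjusted p = 0.102), 1205Lu-R DMSO replicate 1 (0.0839) or 2 (0.0622), or 1205Lu-R corin replicate 2 (0.0928). With scaling by library size alone, all genes shifted by a median of 0.21 in this contrast and the share of calls that were positive went from 45.4% to 64.0%.

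With corin, 6 receptors were higher in 1205Lu-R (*EGFR*, *ERBB2*, *PDGFRA*, *PDGFRB*, *MET*, *FGFR1*) and 3 were lower (*ERBB3*, *ERBB4*, *IGF1R*), where 38% of all genes tested were higher and 39% lower. *ERBB2* was 1.56-fold higher in 1205Lu-R with DMSO and 1.48-fold higher with corin. *IGF1R* was 1.44-fold lower with DMSO and 1.28-fold lower with corin. *ERBB4* was 2.95-fold lower with corin, and with DMSO its ratio of 451Lu-R to 1205Lu-R was 9.14 (2.80 to 47.2).

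Levels of different genes were compared per kilobase of exon. In 451Lu-R with DMSO the leading receptors were *MET* (27.3 ± 0.276 CPM per kb, SD, n = 2), *ERBB3* (21.5 ± 0.032) and *IGF1R* (11.3 ± 0.406). *ERBB2* (3.60), *FGFR1* (2.67), *PDGFRA* (0.428), *EGFR* (0.228) and *ERBB4* (0.0980) followed on the scale of CPM per kb, and *PDGFRB* and *KIT* (both 0.021) overlapped at the bottom. With corin *MET* (17.0) stayed first and *ERBB3* (2.09) came behind *IGF1R* (12.9) and *FGFR1* (8.53). In 1205Lu-R with DMSO the order opened with *FGFR1* (21.9 ± 0.468 CPM per kb, SD, n = 2), *PDGFRA* (20.5 ± 0.029) and *PDGFRB* (19.6 ± 0.400), ahead of *MET* (12.5). With corin *MET* (36.8) was first, ahead of *FGFR1* (23.0), *PDGFRB* (11.9), *IGF1R* (10.7) and *PDGFRA* (9.81). *ERBB4* (0.518) and *ERBB3* (0.502) overlapped there, and all other neighbours in these orders lay apart in both libraries. Divided by the longest transcript instead of all exons, *ERBB3* took the first place in 451Lu-R with DMSO and *FGFR1* took it in both corin groups, while *FGFR1* stayed first in 1205Lu-R with DMSO. The first place in the other groups thus depends on which exons are counted. Some lower places moved too. In 1205Lu-R with corin, *PDGFRA* (14.7 CPM per kb of the longest transcript) then lay above *IGF1R* (12.2). Places of genes at 3 counts or fewer per library rest on few reads, even where they lay apart.

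**Figure D3:**
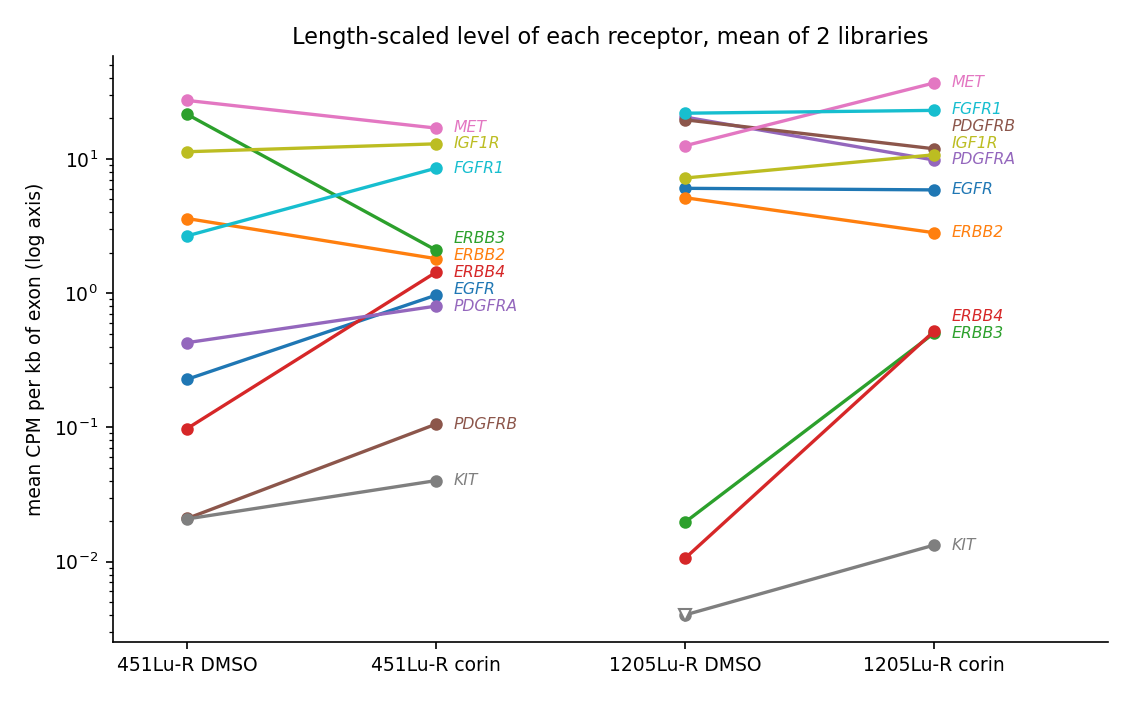
Mean level of each receptor in CPM per kb of exon (log axis) in the 4 groups, with a line from DMSO to corin within each cell line and an open triangle for *KIT* at 0 in 1205Lu-R with DMSO. The lines of *ERBB3* fall in 451Lu-R, from 21.5 to 2.09, and rise in 1205Lu-R, from 0.020 to 0.502.

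Among 11499 genes with a mean of at least 5 CPM, those with the profile most like *EGFR* over the 8 libraries were *MYLK*, *PRKCA* and *TCF4*. The distance was the root mean square difference of centred log2 CPM, with 0.5 added to each CPM before the log, and it was 0.15, 0.21 and 0.27. *MYLK*, a myosin light chain kinase, had means of 8.59 and 40.3 CPM in 451Lu-R with DMSO and corin, and 218 and 183 CPM in 1205Lu-R. The genes most like *ERBB3* were *IGSF11*, *TNS1* and *PLXNC1*, at larger distances of 0.46, 0.72 and 0.72. *IGSF11*, an adhesion protein of the immunoglobulin superfamily, went from 88.5 to 19.2 CPM in 451Lu-R and from 0 to 3.92 CPM in 1205Lu-R.

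Among the ligands of these receptors, several that were at or near 0 with DMSO were present with corin in both lines. Of 11 ligands of EGFR and the ERBB receptors, 7 were tested in 451Lu-R, of which 5 rose, 1 fell and 1 did not pass the test. In 1205Lu-R 6 were tested, of which 5 rose and 1 fell. The median log2 fold changes were 1.37 and 2.98, and 1 and 2 of these genes had 3 counts or fewer in both DMSO libraries. *AREG* (amphiregulin, an EGFR ligand) went from a mean of 0.052 to 12.2 ± 1.55 CPM in 451Lu-R (SD, n = 2), a ratio of counts of 249 (44.3 to 9875). In 1205Lu-R it was at 0 in both DMSO libraries and at 11.9 ± 0.549 CPM with corin, at least 43.0-fold higher against a floor of 3 counts per library. *BTC* (betacellulin) rose in 1205Lu-R from 0.139 to 2.21 CPM, a ratio of 15.8 (5.06 to 79.3).

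The neuregulins, ligands of ERBB3 and ERBB4, did not move together. *NRG1* had 14.9 and 8.42 estimated counts in 451Lu-R with DMSO against 60.3 and 73.6 with corin, and 198 and 215 in 1205Lu-R with DMSO against 109 and 162 with corin. It rose 5.88-fold in 451Lu-R (edgeR adjusted p = 3.14e-07) and fell by 0.61 (log2) in 1205Lu-R (edgeR adjusted p = 0.000128). The responses differed by -3.20 on the log2 scale (SE 0.34, edgeR adjusted p = 5.84e-08). *NRG3* fell by 0.72 (log2) in 451Lu-R, from 55.9 ± 1.91 to 31.8 ± 2.41 CPM (SD, n = 2; edgeR adjusted p = 2.58e-08), and was at 0 in all 4 libraries of 1205Lu-R.

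Of the 4 PDGF genes, all 4 rose in 451Lu-R, where 41.3% of all genes tested rose. Of the 3 tested in 1205Lu-R 1 rose, 1 fell and 1 did not pass the test, where 40.4% and 37.8% of all genes rose and fell. The median log2 fold changes were 3.01 and 0.18. In each line 1 of the tested genes had 3 counts or fewer in both DMSO libraries and could only rise. *PDGFB*, whose dimer binds both PDGF receptors, was at 0 in the DMSO libraries of both lines and was at least 16.8-fold higher with corin in 451Lu-R and at least 19.4-fold higher in 1205Lu-R. *PDGFC* rose in 451Lu-R by 3.91 on the log2 scale (SE 0.26, edgeR adjusted p = 4.57e-11), from 0.741 to 10.4 CPM. *PDGFA* fell by 1.70 (log2) in 1205Lu-R, from 86.4 ± 2.84 to 28.2 ± 3.36 CPM (SD, n = 2; edgeR adjusted p = 8.41e-16), alongside the fall of both PDGF receptors there.

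Of the 4 ligands of MET, KIT and IGF1R, 2 were tested and both rose in each line, with medians of 5.67 and 1.94 on the log2 scale. The share of all genes tested that rose was 41.3% in 451Lu-R and 40.4% in 1205Lu-R. *KITLG* (stem cell factor) rose from 0.999 to 17.8 CPM in 451Lu-R (log2 fold change 4.27, SE 0.23, edgeR adjusted p = 1.16e-12) and from 2.26 to 31.1 CPM in 1205Lu-R (3.71, SE 0.15, edgeR adjusted p = 1.21e-15), while its receptor *KIT* stayed at 6 counts or fewer. *IGF2* had 4 and 1 estimated counts in 451Lu-R with DMSO against 408 and 289.9 with corin (log2 fold change 7.07, SE 0.25, edgeR adjusted p = 1.87e-15). In 1205Lu-R, where its mean was already 277 CPM with DMSO, *IGF2* rose 1.12-fold to 327 CPM (edgeR adjusted p = 3.98e-05).

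Of 18 fibroblast growth factor genes, 8 were tested in 451Lu-R, of which 7 rose and 1 did not pass the test, and all 4 tested in 1205Lu-R rose. Among all genes tested, 41.3% (451Lu-R) and 40.4% (1205Lu-R) rose. The medians were 4.94 and 3.85 on the log2 scale, or 2.07 and 3.11 with genes at 3 counts or fewer in both DMSO libraries set at their lower bound. *FGF9* was at 0 in the DMSO libraries of both lines and was at least 24.4-fold higher with corin in 451Lu-R and at least 12.4-fold higher in 1205Lu-R. *FGF18* reached 4.60 CPM in 451Lu-R (ratio of counts 47.2, 12.7 to 395) and *FGF5* reached 3.78 CPM in 1205Lu-R (ratio 41.0, 11.0 to 345). Each also went up in the other line, *FGF18* with a ratio of 7.01 (2.08 to 36.8) and *FGF5* with a ratio of 21.7 (5.68 to 185). In 451Lu-R, 5 of the 8 were at or under 3 counts per library with DMSO, and in 1205Lu-R 2 of the 4. Genes of this kind enter the test only through the corin libraries, so the counts of ligands that rose are not a measure of the whole list.

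**Figure D4:**
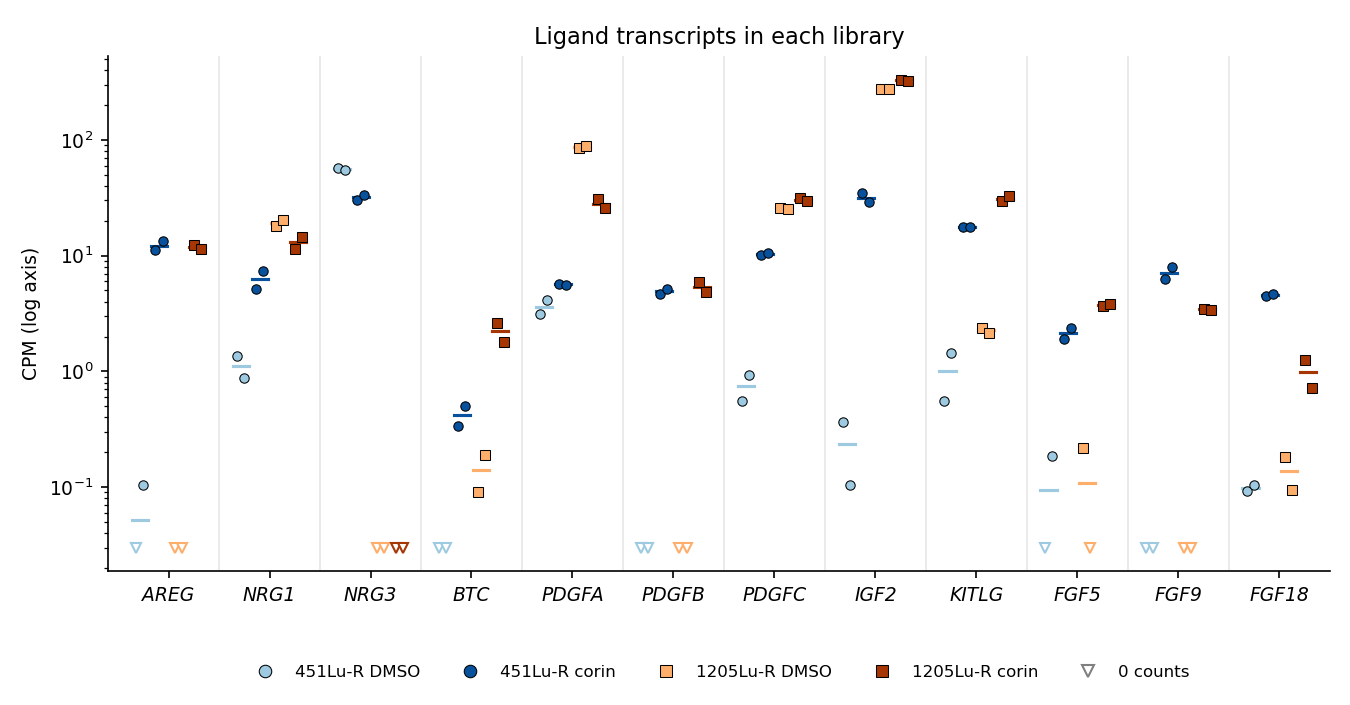
CPM of 12 ligand genes (log axis) in each of the 8 libraries, with a short bar at the group mean and open triangles, placed at the bottom, for libraries at 0 counts. *AREG*, *PDGFB* and *FGF9* are at or near 0 with DMSO in both lines and between 3.44 and 12.2 CPM on average with corin.

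Of the IGF-binding proteins and the IGF2 clearance receptor (8 genes), 5 were tested in 451Lu-R and all 5 rose, and of the 7 tested in 1205Lu-R 4 rose, 2 fell and 1 did not pass the test, with median log2 fold changes of 0.75 and 0.089. *IGFBP5* rose in both lines, from 65.7 ± 0.716 to 317 ± 7.12 CPM in 451Lu-R (SD, n = 2; edgeR adjusted p = 3.73e-21) and from 1.11 ± 0.098 to 12.1 ± 0.369 CPM in 1205Lu-R (SD, n = 2; edgeR adjusted p = 6.17e-12). *IGFBP3* rose in 1205Lu-R from 72.7 ± 1.72 to 901 ± 11.0 CPM (SD, n = 2; log2 fold change 3.56, SE 0.037, edgeR adjusted p = 5.27e-26), and in 451Lu-R it had 1 count or fewer in every library. *IGFBP7* reached 2.32 CPM in 451Lu-R (ratio of counts 11.8, 4.33 to 45.0). In 1205Lu-R *IGF2R* fell by 0.36 on the log2 scale (edgeR adjusted p = 4.18e-10) and *IGFBP6* by 0.21 (edgeR adjusted p = 0.0152).

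Below the receptors, the direction of change was mixed. Of 22 adaptors and exchange factors, 12 of 21 tested rose and 4 fell in 451Lu-R, where 41.3% and 38.6% of all genes tested did. In 1205Lu-R 8 of 19 rose and 7 fell, where 40.4% and 37.8% of all genes did. The median log2 fold changes were 0.41 and 0.060. *GRB14*, an adaptor that dampens insulin and IGF receptor signaling, rose by 5.10 (log2) in 451Lu-R (SE 0.27, edgeR adjusted p = 8.42e-13), from 0.448 to 14.4 CPM. *PLCG2*, a phospholipase C, rose in both lines, by 1.72 in 451Lu-R (edgeR adjusted p = 6.86e-12) and by 3.48 in 1205Lu-R (edgeR adjusted p = 2.63e-14). *GAB2*, a docking protein for PI3K and SHP2, fell by 1.37 (log2) in 451Lu-R, from 320 ± 4.33 to 115 ± 0.058 CPM (SD, n = 2; edgeR adjusted p = 1.44e-18), and *NCK2* by 1.30 (edgeR adjusted p = 2.30e-14). In 1205Lu-R *SHC1*, the adaptor that carries GRB2 to activated receptors, fell by 1.49 on the log2 scale, from 363 ± 6.42 to 137 ± 0.473 CPM (SD, n = 2; edgeR adjusted p = 4.66e-20). Its mean also went down in 451Lu-R, from 149 ± 8.40 to 62.4 ± 0.075 CPM (SD, n = 2). *PTPN11*, which encodes SHP2, fell by 0.65 in 1205Lu-R (edgeR adjusted p = 6.02e-14), and *SHC3* rose by 2.02 there (edgeR adjusted p = 7.85e-10).

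Of 19 negative regulators of receptor kinases, 18 were tested in each line. In 451Lu-R 10 rose and 2 fell, with a median log2 fold change of 0.28, beside 41.3% and 38.6% of all genes tested. In 1205Lu-R 7 rose and 8 fell, with a median of 0.0035, beside 40.4% and 37.8%. *ERRFI1*, which encodes the feedback inhibitor MIG6 of EGFR and the ERBB receptors, had 166 and 149 estimated counts in 451Lu-R with DMSO against 2421 and 1979 with corin. It rose 14.1-fold there (log2 fold change 3.82, SE 0.057, edgeR adjusted p = 1.87e-21) and had the largest rise of the list in that line. Its mean also went up in 1205Lu-R, from 343 ± 1.17 to 636 ± 3.59 CPM (SD, n = 2). *SPRY1*, a Sprouty inhibitor of receptor signaling, rose in both lines, by 2.18 (log2) in 451Lu-R (edgeR adjusted p = 6.91e-14) and by 0.95 in 1205Lu-R (edgeR adjusted p = 0.000223). In 451Lu-R the receptor phosphatase *PTPRJ* fell by 1.15 (edgeR adjusted p = 1.74e-14) and *SPRY4* by 0.61 (edgeR adjusted p = 5.95e-11). The mean of *PTPRJ* also went down in 1205Lu-R, from 97.2 ± 0.511 to 42.4 ± 0.568 CPM (SD, n = 2).

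*LRIG1*, a membrane protein that promotes the turnover of ERBB receptors and MET, had 818 to 897 estimated counts in 1205Lu-R with DMSO and 276 to 351 with corin. It fell by 1.45 on the log2 scale (SE 0.063, edgeR adjusted p = 3.99e-15), whereas in 451Lu-R it rose 2.17-fold (edgeR adjusted p = 2.08e-13). In 1205Lu-R *SOCS5* fell by 1.48 on the log2 scale (edgeR adjusted p = 2.40e-18), whereas in 451Lu-R it rose by 0.58 (edgeR adjusted p = 4.53e-07). *CBLB*, a ubiquitin ligase for activated receptors, rose by 1.0 in 1205Lu-R (edgeR adjusted p = 1.93e-05), and its value of 0.018 in 451Lu-R did not pass the test (edgeR adjusted p = 0.835).

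Among 16 genes of PI3K and AKT signalling, 5 of 14 tested rose and 7 fell in 451Lu-R, beside 41.3% and 38.6% of all genes tested. Of those risen there, *PIK3R5* had 3 counts or fewer in both DMSO libraries and could only rise. In 1205Lu-R 4 of 12 rose and 6 fell, beside 40.4% and 37.8%. The median log2 fold changes were -0.12 and -0.051. *AKT1* fell in both lines, from 213 ± 2.27 to 96.3 ± 4.48 CPM in 451Lu-R (SD, n = 2; edgeR adjusted p = 2.58e-15) and from 110.5 ± 0.615 to 51.6 ± 2.02 CPM in 1205Lu-R (SD, n = 2; edgeR adjusted p = 1.49e-15). In 451Lu-R *AKT2* fell by 1.45 on the log2 scale (edgeR adjusted p = 1.19e-15). Its mean also went down in 1205Lu-R, from 114 ± 0.872 to 57.6 ± 4.31 CPM (SD, n = 2). Among the regulatory subunits, *PIK3R1* rose in 451Lu-R from 58.1 ± 0.758 to 201 ± 4.91 CPM (SD, n = 2; edgeR adjusted p = 9.88e-19) and *PIK3R3* in 1205Lu-R from 14.5 ± 1.15 to 83.6 ± 2.50 CPM (SD, n = 2; edgeR adjusted p = 7.09e-18). Each mean also went up in the other line. That of *PIK3R1* went from 35.5 ± 0.179 to 55.4 ± 0.654 CPM and that of *PIK3R3* from 587 ± 9.53 to 653 ± 5.42 CPM (SD, n = 2). *PIK3R5* reached 2.42 CPM in 451Lu-R (ratio of counts 16.7, 5.40 to 83.4). Of the catalytic subunits in 1205Lu-R, *PIK3CA* fell by 1.32 on the log2 scale (edgeR adjusted p = 4.59e-13) and *PIK3CD* rose by 1.09 (edgeR adjusted p = 2.39e-09). In 451Lu-R both means went down, that of *PIK3CA* from 42.9 ± 2.19 to 22.6 ± 0.738 CPM and that of *PIK3CD* from 107 ± 7.16 to 87.0 ± 5.03 CPM (SD, n = 2).

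Outside the 10 members, 48 receptor tyrosine kinases were listed, and most of those tested rose in each line. In 451Lu-R 33 of 41 rose and 6 fell, with a median log2 fold change of 2.95, or 2.76 with the 12 genes at 3 counts or fewer in both DMSO libraries set at their lower bound. In 1205Lu-R 26 of 33 tested rose and 6 fell, with a median of 1.67, and 5 of them were at 3 counts or fewer with DMSO. Over all genes tested, 41.3% (451Lu-R) and 40.4% (1205Lu-R) rose, and 5.24% and 4.24% were that low with DMSO. Genes that low enter the test only through the corin libraries and can only rise, so these counts and medians are not a measure of the whole list. *FLT4*, a VEGF receptor, was at 0 with DMSO and at 13.0 ± 1.47 CPM with corin in 451Lu-R (SD, n = 2), at least 44.5-fold higher, and the ephrin receptor *EPHA7* was at least 14.4-fold higher. *EPHA7* also went up in 1205Lu-R (ratio of counts 32.6, 8.65 to 275). In 1205Lu-R *ROR2*, a WNT5A receptor, was at least 26.0-fold higher, and *KDR*, another VEGF receptor, rose by 5.08 on the log2 scale (SE 0.22, edgeR adjusted p = 2.47e-15). Both means also went up in 451Lu-R, that of *ROR2* from 0.574 ± 0.226 to 9.04 ± 0.080 CPM and that of *KDR* from 8.57 ± 1.35 to 62.9 ± 2.20 CPM (SD, n = 2). The collagen receptor *DDR2* fell in both lines, by 2.26 in 451Lu-R (edgeR adjusted p = 1.03e-08) and by 1.95 in 1205Lu-R (edgeR adjusted p = 3.32e-18). *AATK* fell by 1.89 in 451Lu-R (edgeR adjusted p = 6.89e-10), while its mean went up in 1205Lu-R, from 0.875 ± 0.087 to 3.79 ± 0.433 CPM (SD, n = 2). *AXL* fell by 1.09 in 1205Lu-R, from 962 ± 20.4 to 476 ± 6.36 CPM (SD, n = 2; edgeR adjusted p = 1.47e-19). In 451Lu-R, where *AXL* was barely detected, it rose from 2.42 and 0 to 29.2 and 23.4 counts (95% counting interval of the ratio 6.59 to 212; edgeR adjusted p = 1.85e-06), and the responses of the lines differed (edgeR adjusted p = 2.63e-07).

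**Figure D5:**
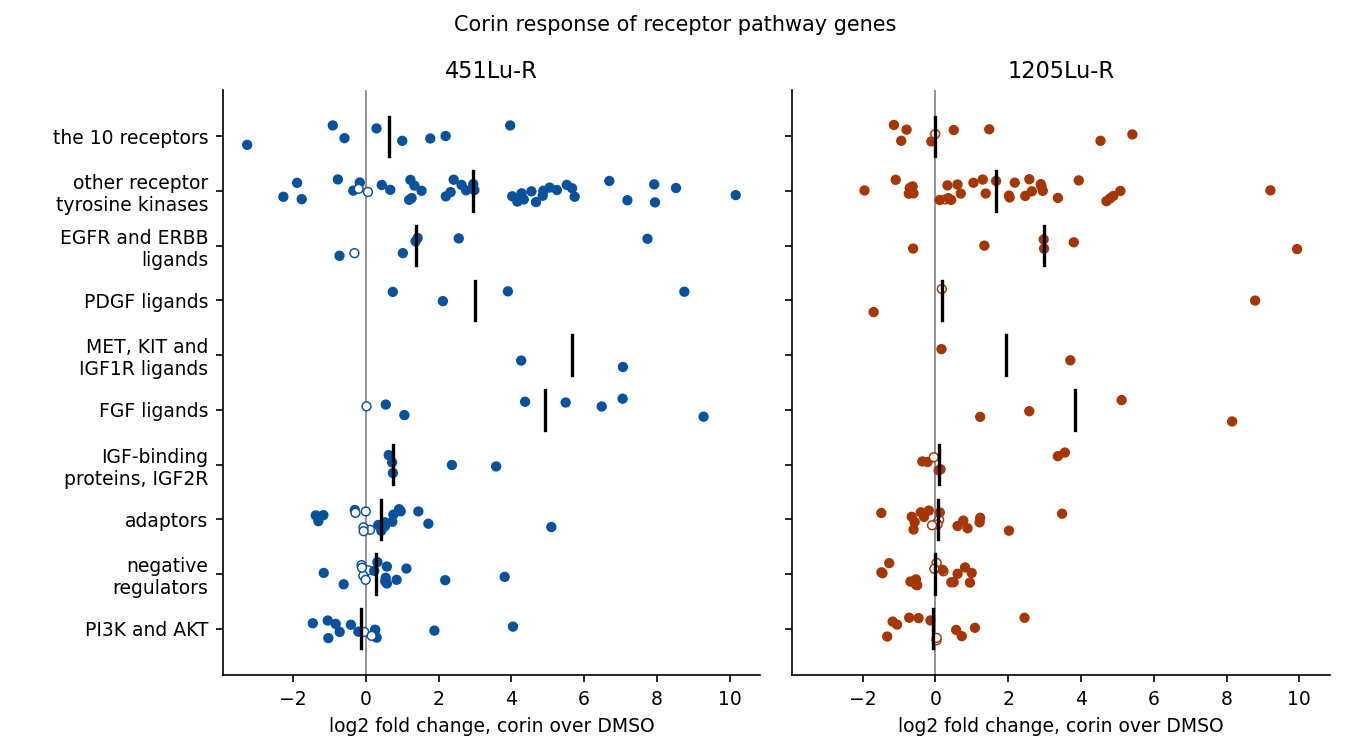
Log2 fold change with corin over DMSO for every tested gene of the 10 receptors and of 9 lists around them, with 451Lu-R on the left and 1205Lu-R on the right. Filled points have an edgeR adjusted p under 0.05, open points do not, vertical position within a row is arbitrary, and the black bar is the median of the row. The bar of the other receptor tyrosine kinases lies at 2.95 (451Lu-R) and 1.67 (1205Lu-R), and that of the 10 receptors at 0.65 and -0.0040. Genes near 0 counts with DMSO enter a row only through the corin libraries, so the bars do not describe whole lists.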

How the data were processed

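Poly(A) RNA-Seq of 451Lu-R and 1205Lu-R cells with corin or DMSO was analysed in 8 of the 16 samples of the series. Per the labels and methods, Trimmomatic trimming was followed by Salmon quantification on GENCODE v32 transcripts, and the authors deposited estimated counts (expected counts, not normalized) per gene for 8 libraries. For the PLX4032 arms, the tables used here hold the authors' own log2 fold changes and adjusted p-values of PLX4032 plus corin against PLX4032. Those are results of the study and were not used.

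Of 34228 gene IDs, 34052 were matched to GENCODE 44 symbols. Counts were rounded and tested in R 4.3.3 with edgeR 4.0.16 (filterByExpr, TMM with factors from 0.962 to 1.05, glmQLFit, glmQLFTest, 2-sided, Benjamini-Hochberg over all genes tested, called under 0.05). Within a cell line 4 libraries were fitted, and between lines all 8. The SE is the absolute log2 fold change divided by the square root of F. CPM used library totals without the TMM factors, so ratios of mean CPM differ somewhat from the fitted folds. Groups with 3 counts or fewer in every library were given as lower bounds or as ratios of counts with exact 95% intervals, which cover counting error only.

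All 10 members were named, with *MITF* and *AXL* as checks of the labels, the 3 coding genes nearest in profile to *EGFR* and to *ERBB3*, and from each other list at most the 2 genes with the largest rise and the 2 with the largest fall per line, among those called with a mean of at least 1 CPM. Members and lists were chosen with earlier results of these data known, and 1 listed gene is not reported here. Libraries with the same replicate number deviated from their group means with a correlation over genes of 0.089 (451Lu-R) and -0.118 (1205Lu-R), so the numbers were taken not to pair the samples. Alternatives were DESeq2 1.42.0, RLE size factors, library size alone, no filter, a minimum mean of 1 CPM, the replicate number as a block (replicate block), a single fit of all 8 libraries for the comparisons within a line, and leaving out each library in turn. The scripts were tested on simulated data. Sequencing batches or dates are not in the labels.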

Additional observations from a re-analysis of the deposited data

Results flagged for a closer look

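The corin response differed between 1205Lu-R and 451Lu-R for 7 of the 9 receptors tested, by the edgeR interaction in 1 fit over 8 libraries, beside 49.7% of all genes tested. On the log2 scale, as the response of 1205Lu-R minus that of 451Lu-R, the differences were 7.76 for *ERBB3*, 2.03 for *MET*, 0.17 for *IGF1R*, -1.82 for *FGFR1*, -2.18 for *PDGFRA*, -2.35 for *EGFR* and -3.16 for *PDGFRB*. *ERBB3*, *PDGFRA* and *MET* were called in opposite directions in the lines. *IGF1R* rose in both. No group held enough libraries for a test of single libraries that stand apart.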

How the results depend on the processing

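Over all alternatives, 557 values of the members kept their direction and their side of the threshold, 10 kept their direction and lost the call, and 7 changed sign. The sign changes were in 2 values that did not pass the test as reported. For *FGFR1* in 1205Lu-R the log2 fold change was 0.00053 with DESeq2, 0.00034 with RLE size factors, 0.071 with library size alone (adjusted p = 0.0334) and 0.011 with a minimum mean of 1 CPM, and without 1 library it ran from -0.046 to 0.0044. For the difference in response of *ERBB2* it was 0.14 with library size alone, and without 1 library it ran from -0.17 to 0.061. The lost calls were those of *EGFR* in 1205Lu-R, also with a minimum mean of 1 CPM (adjusted p = 0.0516), and of *IGF1R* in the difference between lines, and the cause was not tested. A library left alone in its group was assumed to vary like the others. By the stricter rule the counts of genes called in 451Lu-R were 2198, against 11612, with 2 receptors risen and 1 fallen, while 1205Lu-R had 1858, against 11396, with 2 risen and 0 fallen. With the replicate block 11500 and 11418 genes were called, with a crossed replicate block in 1205Lu-R, chosen after seeing the data, 11334, and in both fits the same numbers of receptors rose and fell. Without the filter, with all 8 libraries in 1 fit or without 451Lu-R DMSO replicate 2, 6 receptors rose in 451Lu-R, *PDGFRB* being the addition. Depth limits *KIT* in all groups, *PDGFRB* in 451Lu-R, and *ERBB3* and *ERBB4* in 1205Lu-R with DMSO.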

Other observations

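The genes of the VEGF receptors were picked after their values were seen. *FLT1* had 12.0 and 8.58 estimated counts in 451Lu-R with DMSO against 513 and 455 with corin, and 39.1 and 30.1 in 1205Lu-R with DMSO against 227 and 296 with corin. Its edgeR log2 fold change was 5.53 (SE 0.15) in 451Lu-R and 2.91 (SE 0.15) in 1205Lu-R. *KDR* had 83 and 92 estimated counts in 451Lu-R with DMSO against 761 and 614 with corin, and 5 and 9 in 1205Lu-R with DMSO against 231 and 252 with corin. *FLT4*, which was induced in 451Lu-R, had 2 counts or fewer in every library of 1205Lu-R. The endothelial marker *VWF* also rose with corin, from 12 and 16.0 to 85 and 96 counts in 451Lu-R and from 11 and 18 to 181 and 198 in 1205Lu-R, while *CDH5* stayed at 6 counts or fewer, and *PECAM1*, with 0 counts in 451Lu-R, fell in the other line from 100 and 104 to 82.0 and 67.3 counts. Their part in these results was not tested.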
